A study of Mus musculus with 6 samples.

Results

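Heat shock proteins are molecular chaperones that bind unfolded polypeptides and help them fold, cross membranes or be degraded. HSP70 proteins, encoded by the Hspa genes, work in cycles of ATP hydrolysis that are started by J-domain proteins (the Dnaja, Dnajb and Dnajc genes). The cycles are ended by nucleotide exchange factors, among them HSPH1 and most BAG proteins. HSP90 matures kinases and receptors handed over from HSP70, small heat shock proteins (Hspb genes) hold unfolded proteins without ATP, and the transcription factor HSF1 raises the inducible members when unfolded proteins build up. Many families therefore pair a constitutive gene with a stress-inducible one, such as Hspa8 with Hspa1a and Hspa1b.

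The genes described here were chosen by symbol, as the HSP70, HSP90, HSP60 and HSP10, HSP110, small heat shock protein, J-domain, BAG and HSF genes. Members of the unfolded protein response of the endoplasmic reticulum (Hspa5, Dnajb9, Dnajb11, Dnajc3 and Dnajc10) were left out by the rule. The rule found 71 of the 27179 genes of the table, namely 24 Dnajc, 12 Hspa, 11 Dnajb, 7 Hspb, 6 Bag and 4 Dnaja genes, 2 genes of HSP90, the pair Hspd1 and Hspe1, 2 Hsf genes and Hsph1.

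RNA was sequenced from cultures of B16F10, an established line of wild-type mouse melanoma cells. OZO, an ozonated olive oil, was given to 3 cultures and OLO, the olive oil it is made from, to 3, both at 0.01% for 6 h. The values used are the authors' mean over the libraries of both groups, as log2 CPM (the count of a gene scaled to a common library size, on a log2 scale). No values per library were used here, and the authors' columns of their own comparison were left aside, so no difference between OZO and OLO and no error between cultures is given for any gene. Every level below is a mean over treated and control cultures in bulk RNA. A level cannot be read as that of unstressed cells, and a change of an inducible gene with OZO was not tested.

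No read was found for 6025 genes, which share the lowest mean. Since 0.5 reads are added to each count before scaling, that value corresponds to a typical library (geometric mean) of 19641946 reads. At this size 1 CPM is 19.6 reads per library. The depth of each library is unknown. Markers of the labelled cell type were present, and all 7 melanoma genes had at least 100 CPM, against 9.06% of the 27179 genes. Tyrp1 (the melanin enzyme TYRP1) had 2144 CPM per kb of transcript. Of 9 markers of leukocytes, endothelium, fibroblasts and epithelium none reached 10 CPM, against 32.3% of all genes. At 1 CPM 4 of the 9 passed (44.4%), near the 43.7% of all genes. These were Cd68 (5.47 CPM), Pdgfra (3.28), Col1a1 (1.70) and Pecam1 (1.21). Krt5 had no reads.

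All 71 chaperone genes had reads, and 59 (83.1%) reached 1 CPM, against 43.7% of the 27179 genes. Counts grow with the length of a transcript, so levels of different genes were compared as CPM per kb of the longest annotated transcript. The median of the 71 genes was 10.1 CPM per kb (3.33 on the log2 scale), against 1.87 CPM per kb for the 19227 genes with reads and a transcript in the annotation. With merged exons as the length the 2 medians were 2.84 and 0.55 on the log2 scale, and with the shortest protein-coding transcript (the longest transcript where a gene has none) 4.92 and 1.95. The quartiles of the 19227 genes, by the longest transcript, were -3.84 and 3.73 on the log2 scale, and 53 of the 71 chaperone genes were higher than 50% of them. The chaperone genes ran from 0.0527 CPM per kb for Hspb8 to 1535 for Hsp90ab1. At the upper end, 19 of them had at least 90% of those genes below them.

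**Figure D1:**
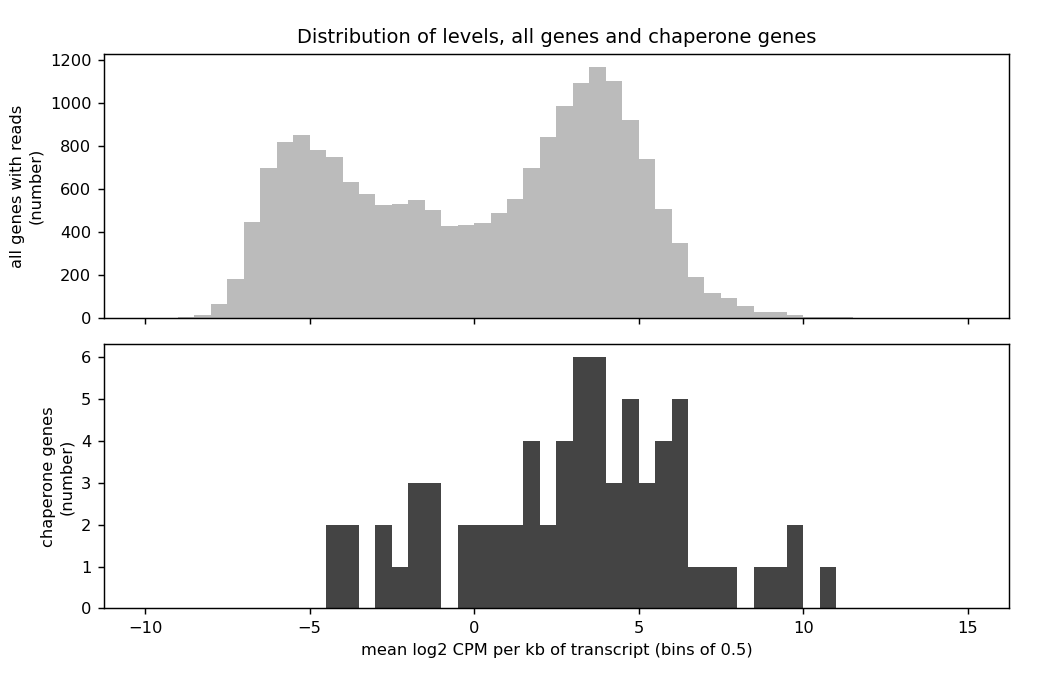
Number of genes in bins of 0.5 of the mean log2 CPM per kb of transcript, for the 19227 genes with reads (above) and the 71 chaperone genes (below). All genes form a low and a high mode, and most chaperone genes lie in the range of the high mode or beyond it, with a median of 3.33 against 0.90 for all genes.

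The 5 highest genes per kb were Hsp90ab1, Hsp90aa1, Hspd1, Hspa8 and Hspa9. Hsp90ab1, the constitutive cytosolic HSP90 (chromosome 17, 45567775 to 45573271, minus strand, GRCm38), had a mean of 3868 CPM, or 1535 CPM per kb. Its inducible partner Hsp90aa1 (chromosome 12, 110690605 to 110702728) had 2893 CPM, or 882 CPM per kb. Both lay above 99.8% of genes, and the pair differed by 0.80 on the log2 scale of CPM per kb, or 1.74-fold. Without a correction for length the difference was 0.42 on the log2 scale. Of the stretches of 150 bases, the read length, in the Hsp90aa1 transcript, 36.2% also occur in transcripts of other genes, mostly Gm12346, against 0% for Hsp90ab1, and the part of shared reads in the difference was not tested. Of the reads, the HSP90 pair held 40.2% of the summed CPM of the 71 genes, and 3 genes (with Hspd1) held 52.1%. The 7 small heat shock protein genes together held 0.0951%. The spread of these means between cultures is unknown, so neighbours in such an order are not shown to differ.

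**Figure D2:**
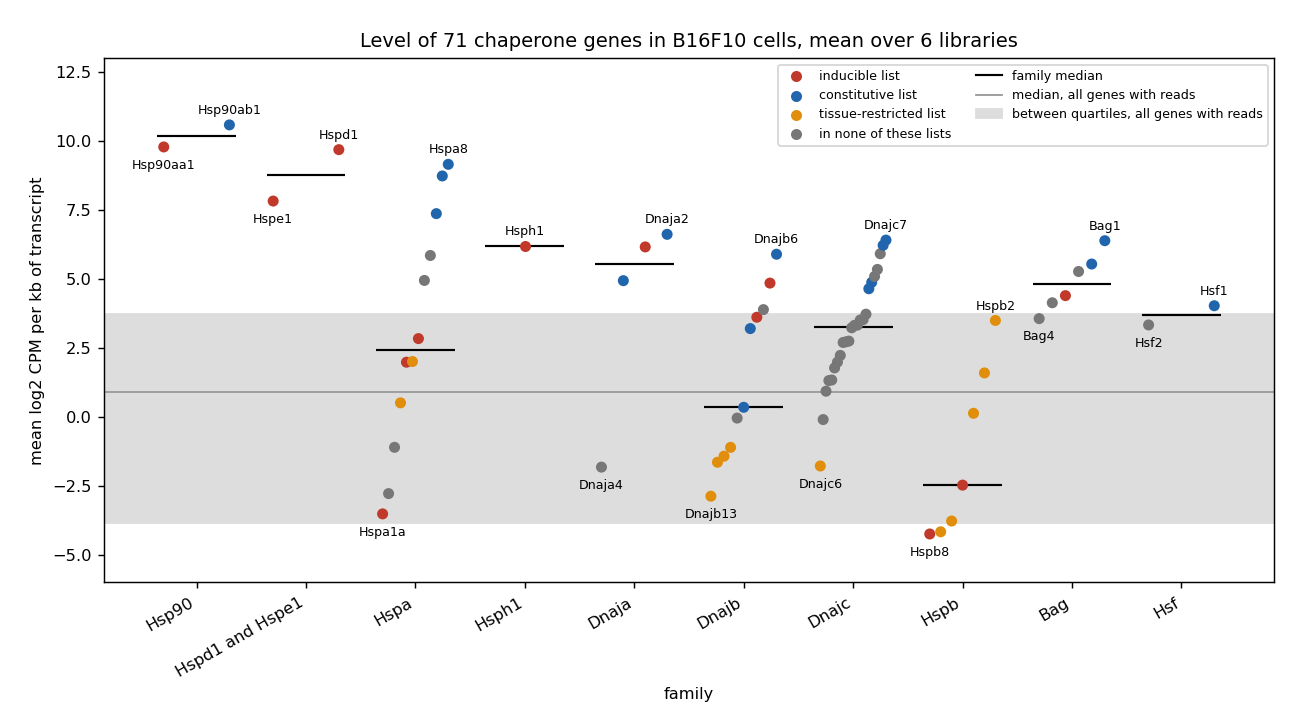
Mean log2 CPM per kb of transcript of each of the 71 genes (points), by family and in ascending order within it, with the family's median (black line), the median of all genes with reads (grey line) and the range between their quartiles (grey band). Red points are in the inducible, blue in the constitutive and orange in the tissue-restricted list. HSP90 and the Hspd1 and Hspe1 pair lie far above the band, and the Hspb median of -2.47 lies below the median of all genes.

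Among the HSP70 genes, a few were very abundant and the rest moderate or low. Hspa8, the constitutive HSP70 of the cytosol (chromosome 9, 40800984 to 40810087), had 570 CPM per kb, and Hspa9, the mitochondrial HSP70 known as mortalin, had 425. Hspa4, an HSP110 protein that exchanges nucleotide on HSP70, had 165 CPM per kb. Next came Hspa14, which works with the J-domain protein DNAJC2 on ribosomes, with 57.7 CPM per kb, and Hspa13, a microsomal HSP70, with 30.8. The median over the 12 Hspa genes was 5.36 CPM per kb. Hspa2, known mainly from testis, had 4.02 CPM per kb and its testis-expressed relative Hspa1l 1.42. Hspa12b and Hspa12a, distant members of the family, had 0.465 and 0.146 CPM per kb. Some 70.2% of the stretches of 150 bases in the Hspa1l transcript also occur in Gm10501, which overlaps it on the other strand, so its reads may not all be its own.

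Lowest of the HSP70 genes was Hspa1a, one of the 2 genes of inducible HSP70. Hspa1a (chromosome 17, 34969190 to 34972156) had 0.259 CPM, which is a geometric mean of 5.09 reads per library after the addition of 0.5 reads, and 0.0874 CPM per kb. Hspa1b, its neighbour on the same strand (34956436 to 34959238), had 20.0 CPM, or 393 reads, and 7.15 CPM per kb. Hspa8 was 79.8-fold higher than Hspa1b per kb of the longest transcript, or 6.32 on the log2 scale, against 5.87 with merged exons and 8.94 with the shortest protein-coding transcript as length. Hspa1a and Hspa1b are near-copies, and 38.1% of the 150-base stretches of the Hspa1a transcript occur in Hspa1b. A single read from those stretches fits both genes. Whether the other read of its pair placed it is unknown. Summed, the 2 genes stood 6.30 below Hspa8 on the log2 scale of CPM per kb, or 78.8-fold lower. How many shared reads were dropped in counting is unknown.

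HSP60 and HSP10, which form the folding chamber of the mitochondrial matrix and its lid, were among the highest. Hspd1 had 824 CPM per kb, with 99.87% of genes lower, and Hspe1 had 226, with 99.16% lower. The 2 genes lie head to head on chromosome 1 (Hspd1 from 55077835 to 55088243 on the minus strand, Hspe1 from 55088132 to 55091307 on the plus strand) and overlap in the annotation. In the Hspd1 transcript, 18.6% of 150-base stretches also occur in the pseudogene Hspd1-ps3. Hspa9, Hspd1 and Hspe1 stood apart from the other 5 mitochondrial genes listed, all of them J-domain genes. Dnaja3, a partner of HSPA9, had 30.6 CPM per kb and Dnajc11, associated with the machinery that shapes cristae, 11.4. Dnajc19 and Dnajc15, which act at the import motor, had 6.48 and 2.49 CPM per kb, and Dnajc30 had 2.53.

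J-domain proteins choose where HSP70 acts. Of the Dnaja genes, which resemble bacterial DnaJ most, Dnaja2 had 98.2 CPM per kb, Dnaja1 71.5 and Dnaja3 30.6. Dnaja4 was low, with 0.283 CPM per kb, and 50.2% of its 150-base stretches occur in Wdr61 on the other strand. The Dnajb genes were more mixed, with a median of 1.27 CPM per kb over 11 genes. Dnajb6, a suppressor of aggregation, was highest with 59.5 CPM per kb, followed by the inducible Dnajb1, which works with HSP70 in disaggregation, with 28.8. Dnajb2 had 14.8, Dnajb4 had 12.2 and Dnajb12, a protein of the endoplasmic reticulum membrane, 9.19 CPM per kb. Dnajb14, related to Dnajb12, had 1.27 and Dnajb5 0.970 CPM per kb. Below 1 CPM lay the 4 testis genes Dnajb3, Dnajb7, Dnajb8 and Dnajb13, with 0.465, 0.372, 0.320 and 0.136 CPM per kb. Dnajb3 overlaps 9 other annotated genes, 8 of them Ugt1a genes on the opposite strand.

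All 24 Dnajc genes reached 1 CPM, against 10 of 12 Hspa, 7 of 11 Dnajb and 2 of 7 Hspb genes. At 0.1 CPM all Dnajc, Hspa and Dnajb genes and 5 Hspb genes passed, and at 10 CPM 18 Dnajc, 8 Hspa, 6 Dnajb and 0 Hspb genes did. Of the 27179 genes, 59.0% passed at 0.1 CPM, 43.7% at 1 CPM and 32.3% at 10 CPM. The Dnajc proteins are J-domain proteins that share little with one another outside that domain. The highest were Dnajc7, which binds both HSP70 and HSP90, with 84.9 CPM per kb, the splicing factor Dnajc8 with 74.6, and Dnajc9, a chaperone of histones, with 60.3. Dnajc2, the ribosome-bound partner of HSPA14, had 40.6 CPM per kb against 57.7 for Hspa14. The endosomal Dnajc13 had 34.1, Dnajc5, which guards exocytosis as cysteine string protein, 29.4, and Dnajc21, a factor of ribosome assembly, 25.0 CPM per kb. Another 12 genes lay between 3.42 and 13.2 CPM per kb. These were Dnajc1, Dnajc22, Dnajc11, Dnajc14, Dnajc24, Dnajc18, Dnajc17, Dnajc27, Dnajc19, Dnajc4, Dnajc16 and Dnajc25 in descending order. Dnajc30, Dnajc15 and Dnajc28 lay between 1.91 and 2.53. The lowest were Dnajc12, a partner of aromatic amino acid hydroxylases, with 0.935 and Dnajc6 (auxilin, which strips clathrin from vesicles in nerve cells), with 0.291 CPM per kb.

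Small heat shock protein genes were the lowest family, with a median of 0.180 CPM per kb over 7 genes, and 2 of 7 reached 1 CPM. Hspb1, the gene of HSP25 in the mouse and one of the best known heat-inducible genes, had 0.167 CPM, a geometric mean of 3.29 reads after the addition of 0.5, and 0.180 CPM per kb. Some 36.6% of its 150-base stretches occur in the pseudogene Hsp25-ps1. Hspb8, the partner of BAG3, had 1.88 reads and Hspb3 0.855 reads by the same measure, where a gene without reads has 0.5. The highest was Hspb2 with 11.3 CPM per kb, a muscle gene that overlaps Cryab on the opposite strand. Cryab, which encodes a further small heat shock protein and is not covered by the rule, had 123 CPM per kb. In the Hspb2 transcript, 16.5% of 150-base stretches occur in Cryab. Hspb6 had 3.02, Hspb9 1.09 and Hspb7 0.0730 CPM per kb.

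Most BAG proteins release ADP from HSP70 and link it to other systems. All 6 genes exceeded 10 CPM, against 32.3% of the 27179 genes. Bag1 had 83.6 CPM per kb, Bag6, which handles tail-anchored and misplaced membrane proteins, 46.5, and Bag5 38.6. Bag3, the inducible member that acts with HSPB8 in autophagy of damaged proteins, had 21.0 CPM per kb, while its partner Hspb8 had 0.0527. Bag2 and Bag4 had 17.6 and 11.8. The nucleotide exchange factor Hsph1 had 74.1 CPM per kb. Of the transcription factors, Hsf1 had 16.3 CPM per kb and Hsf2 10.1, both above 70% of genes.

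Inducible and constitutive genes were set side by side as lists taken from common knowledge of the heat shock response. The lists were drawn up with earlier results of these data known, so their contrast is a description. The 16 constitutive genes had a median of 66.6 CPM per kb and all reached 10 CPM. The 13 inducible genes had a median of 21.0 CPM per kb, and 10 of 13 reached 10 CPM (76.9%). Of the 27179 genes, 32.3% did. Their medians differed by 1.66 on the log2 scale of CPM per kb, but the inducible genes spread wider, from -4.25 to 9.78, against 0.35 to 10.58. The 3 inducible genes under 10 CPM were Hspb1, Hspb8 and Hspa1a. In contrast, the inducible Hsp90aa1, Hspd1, Hspe1, Hsph1 and Dnaja1 were each above 96% of genes. With merged exons as the length the difference between the medians was 0.70.

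By pairs, the constitutive gene was higher in each of the 6 pairs per kb of the longest transcript, by 0.46 to 12.67 on the log2 scale. The largest value, Hspa8 over Hspa1a, rests on the 5.09 reads of Hspa1a, and it was 12.23 with merged exons and 15.29 with the shortest protein-coding transcript as length. The lead was smallest for Dnaja2 over Dnaja1 (0.46 on the log2 scale of CPM per kb) and turned to -0.49 without a correction for length. Hspa4 exceeded Hsph1 2.23-fold and Dnajb6 exceeded Dnajb1 2.06-fold. Of the 150-base stretches, 29.7% in Dnajb6, 20.0% in Dnaja1 and 22.4% in Hspa8 also occur in other genes, against 0% in Dnajb1, Dnaja2, Hspa4 and Hsph1, and the part of shared reads in these differences was not tested. The lead of Dnajb6, 1.05 on the log2 scale, was 0.09 with merged exons and 4.72 with the shortest protein-coding transcript as length. With the shortest protein-coding transcript as length, the leads of Dnaja2 and of Hspa4 turned to -2.94 and -2.36. That length is 533 bases for Dnaja1 and 416 for Hsph1, against 5622 and 4764 for their longest transcripts. Dnaja2 and Hspa4 keep 2919 and 4618 bases under both. For Dnajb6 it is 218 bases, against 2918. These values therefore rest on short annotated models of 1 gene of each pair. Hspa1a and Hspa1b were below Hspa8 under each of the lengths used and without a correction for length. The inducible Hspa4l, a relative of Hspa4, had 3.95 CPM per kb.

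**Figure D3:**
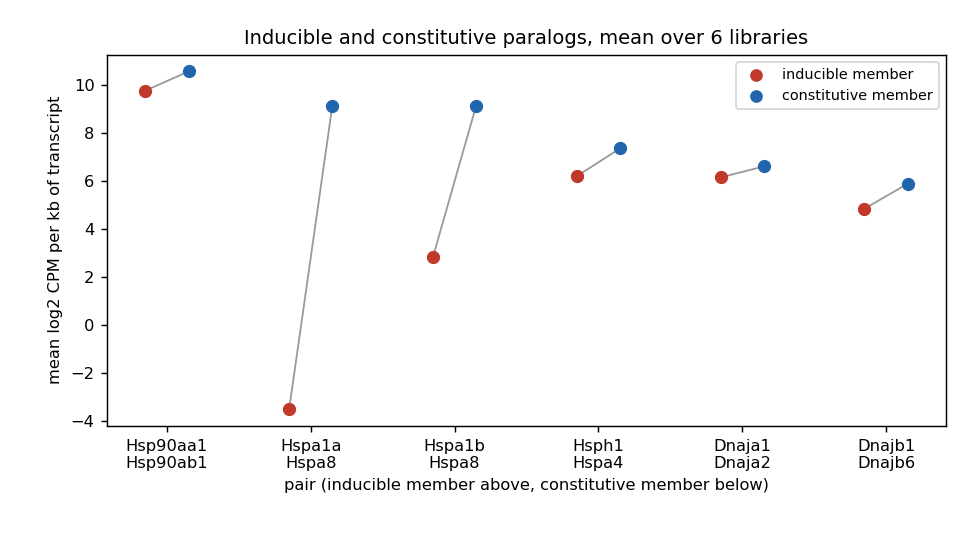
Mean log2 CPM per kb of transcript for 6 pairs of an inducible gene (red) and a constitutive relative (blue), joined by a line. The pairs with Hspa8 differ by 12.67 (Hspa1a) and 6.32 (Hspa1b), and the other 4 pairs differ by 0.46 to 1.16.

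Genes known mainly from testis, muscle or nerve had a low median, 0.416 CPM per kb over the 12 members concerned. For the 19227 genes with reads it was 1.87. By counts they were not low, since at 0.1 CPM 11 of the 12 passed (91.7%, against 59.0% of all 27179 genes). At 1 CPM 5 of the 12 passed (41.7%, near the 43.7% of all genes). These 5 were Hspb2, Hspa2, Hspb6, Hspa1l and Dnajc6. The 30 members in none of the inducible, constitutive and tissue-restricted lists had a median of 9.67 CPM per kb, and 28 of them reached 1 CPM. The other 2, Dnaja4 and Hspa12a, had 0.850 and 0.835 CPM.

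Further chaperones and co-chaperones outside the rule were abundant. Of 24 such genes, 22 reached 10 CPM (91.7%, against 32.3% of the 27179 genes). At 100 CPM 17 passed (70.8%, against 9.06%), and the median was 97.7 CPM per kb. The 8 genes of the chaperonin TRiC, which folds actin and tubulin, lay between 109 CPM per kb for Cct3 and 319 for Cct8. Of the HSP90 partners, Fkbp4 had 222, Stip1, which hands clients from HSP70 to HSP90, 190 and Ahsa1, which activates its ATPase, 87.8 CPM per kb. Lower were Ptges3 with 63.5, Chordc1 with 25.7, Fkbp5 with 23.1 and Cdc37 with 20.2 CPM per kb.

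Inducible members are known to carry heat shock elements, in which HSF1 binds inverted repeats of the unit GAA or TTC separated by a pair of bases. Promoter windows of RefSeq on GRCm38.p6, from 250 bases before to 50 after an annotated start, were matched for 56 of the 71 genes. Not matched were Hsp90ab1, Hsp90aa1, Hspa8, Hspa9, Dnajc2, Hspa13, Dnajc5, Hsf1, Bag4, Dnajc22, Dnajc11, Hspb2, Dnajc18, Dnajc30 and Dnajc12. The motif of 3 units in alternating direction, each separated by any 2 bases and beginning with either GAA or TTC, was searched on both strands. A match was present for 4 of the 56 genes (7.14%), Hspd1, Hspe1, Hsph1 and Dnajb6, and for 0.662% of the 27025 genes of the promoter table. The sequences below show these matches in capitals within 30 bases of the gene's own strand, because no other matched member had one. Those of Hspd1 and Hspe1 are 1 element read from both strands, in which 2 matches overlap.
Hspd1 (chr1:55088053-55088082, minus strand): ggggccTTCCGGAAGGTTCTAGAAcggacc
Hspe1 (chr1:55088053-55088082, plus strand): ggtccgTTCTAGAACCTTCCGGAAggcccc
Dnajb6 (chr5:29735844-29735873, plus strand): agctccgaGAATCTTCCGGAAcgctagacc
Hsph1 (chr5:149636279-149636308, minus strand): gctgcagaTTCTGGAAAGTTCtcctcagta

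The element of the mitochondrial pair lies from 89 to 72 bases before the annotated start of Hspe1. For Hspd1 it lies from 144 to 127 bases before 1 of the 2 annotated starts. It is outside the window of the other, at 55088243, and lies after that start. In Hsph1 the match follows the start, at bases 16 to 28 from one annotated start and 37 to 49 from the other. Dnajb6 is in the constitutive list, and its match lies 46 to 34 or 127 to 115 bases before its 2 annotated starts.

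The motifs of 2 units, GAANNTTC and TTCNNGAA, each its own reverse complement and part of the longer motif, were present for 10 of the 12 matched inducible genes (83.3%). They were present for 1 of the 11 matched constitutive genes (9.09%), for 15 of all 56 matched members (26.8%) and for 17.0% of the 27025 genes. Inducible genes without one were Dnajb1 and Hspa4l. By family they were present for 1 of 17 matched Dnajc, 2 of 11 Dnajb, 2 of 9 Hspa, 4 of 6 Hspb, 1 of 5 Bag and 2 of 4 Dnaja genes, for Hspd1, Hspe1 and Hsph1, and not for the 1 matched Hsf gene. The inducible genes were listed because heat shock is known to raise them, so this share describes the list and is no independent finding. Stretches before the start are shown for 4 of the inducible genes, with each 8-letter match in capitals. Hspa1a and Hspb1 were low in level, Hspa1b had 64.9% of genes below it, and Dnaja1 was higher. For Dnaja1 the stretch precedes the first of 3 RefSeq starts and the match is in that window alone, and it lies after 40722150, where GENCODE begins the gene.
Hspa1a (chr17:34972242-34972271, minus strand): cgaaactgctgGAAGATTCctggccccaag
Hspa1b (chr17:34959324-34959353, minus strand): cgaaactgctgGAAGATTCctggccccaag
Hspb1 (chr5:135887801-135887830, plus strand): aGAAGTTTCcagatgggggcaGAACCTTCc
Dnaja1 (chr4:40722333-40722362, plus strand): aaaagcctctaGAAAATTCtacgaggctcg

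The stretches of Hspa1a and Hspa1b have the same letters at the same distance, 104 to 97 bases before the start. The mean levels of the genes were 0.0874 and 7.15 CPM per kb, and single reads of their shared stretches fit both genes. Hspb1 has a match on either side of a spacer and a level of 0.180 CPM per kb, and Dnaja1 has a single match and 71.5 CPM per kb. These 4 genes were picked for their levels, so nothing is read from the levels beside the matches. A match is a likeness of letters and not evidence of binding.

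**Figure D4:**
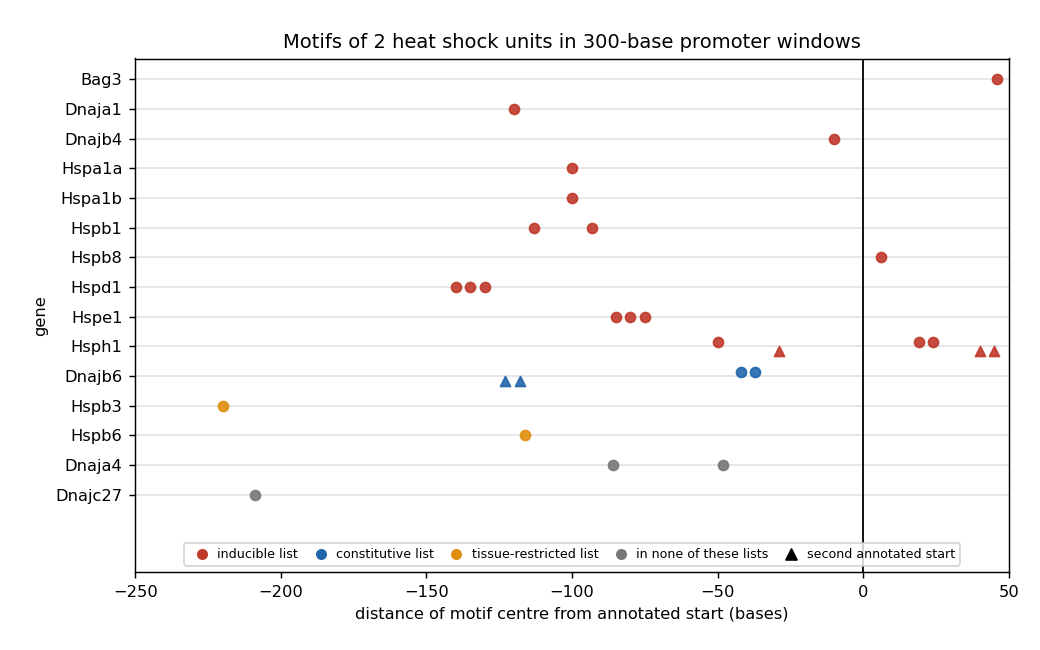
Distance of the centre of each 8-letter match from the annotated start, in bases, for the 15 chaperone genes with a match in a promoter window, coloured by list. Triangles mark the same genes counted from a second annotated start, and 10 of the 15 genes are in the inducible list.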

How the data were processed

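According to the methods and the submitters' processing notes, reads of 2 × 150 bases were aligned to mm10 with HISAT2 (2.1.0), counted with featureCounts (2.1.1) and compared with limma-voom (limma 3.58.1). The library kit was directional, but whether counting used the strand, and its other settings, are not given in the sources used here. The deposited table gives for each gene the mean log2 CPM over all 6 libraries, computed by the authors. It also holds their log2 fold change, moderated statistic, log odds and p-values for OZO against OLO, which are their own comparison and were not used. The tests planned for tables of counts or normalized values could therefore not be run.

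CPM and reads plus 0.5 were computed from the mean, and levels were divided by the length of the longest transcript in GENCODE M21 (GRCm38, the build of mm10), which held 23882 of the 24126 Ensembl identifiers and all 71 members. Stretches of 150 bases of each longest transcript were looked up in all annotated transcripts of other genes, on both strands. Of the 71 genes, 22 shared at least 1 stretch and 16 shared over 10%. Motifs were searched in RefSeq promoter windows. Members and lists were chosen with earlier results of these data known. Genes named were the highest and lowest of each family, the listed genes and the pairs, and the others were added after their values were seen. Alternatives were other lengths, CPM limits, summed Hspa1a and Hspa1b, and shorter motifs. The calculations used pandas 2.3.3, numpy 2.4.6, matplotlib 3.10.9 and scipy 1.17.1 under Python 3.11.15.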

Additional observations from a re-analysis of the deposited data

How the results depend on the processing

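No paired analysis was possible because each gene has 1 mean over all libraries. For the same reason another test or normalization, leaving out each culture, and another pseudocount were not run. The median level of the 71 genes, 3.33 on the log2 scale of CPM per kb, was 2.84 with merged exons and 4.92 with the shortest protein-coding transcript as length, and the median of all genes under these lengths was added after the values were seen. The constitutive median lay above the inducible one by 1.66, by 1.56 without length correction and by 1.44 with Hspa1a and Hspa1b summed. With lengths chosen after the values were seen, it was 0.70 (merged exons) and 1.92 (shortest transcript). Among the pairs, Dnaja2 minus Dnaja1 reversed from 0.46 to -0.49 without length correction and to -2.94 with the shortest transcript, and Hspa4 minus Hsph1 reversed from 1.16 to -2.36 with the latter. Both reversals with the shortest transcript rest on short models of the inducible gene, 533 bases for Dnaja1 and 416 for Hsph1. The longest and shortest transcripts are annotated models, and which of them the cells used was not tested. With limits of 0.1 and 10 CPM in place of 1, 69 (97.2%) and 48 (67.6%) of the 71 genes counted instead of 59. Of the 27179 genes, 59.0% and 32.3% passed these limits. The 2-unit motif was present in 15 of 56 genes (26.8%) instead of 4 (7.14%). Over all genes of the promoter table the share rose as well, to 17.0% from 0.662%.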
